A study of Mus musculus with 8 samples.

Results

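The genes whose mouse symbols begin with Ube2 followed by a letter encode the ubiquitin-conjugating enzymes, or E2s, and a few relatives, and their transcript levels were followed over 4 stages of sperm formation. Members were the probe sets annotated to exactly 1 gene with such a symbol, which gave 81 of 34945 single-gene probe sets and 33 of 18193 genes. Where a gene had several probe sets, the brightest on average stood for it. Of the 33 genes, 31 were tested, having a signal above the array median on 2 or more of the 8 arrays. The 2 others, Ube2l6 and Ube2ql1, were above it on 0 arrays, with signals of 1.6 to 29.9 and of 3.0 to 7.6. Ube2l3 was named only together with other genes, by 4 probe sets, and was not analysed here, nor was Ube2m. The symbol does not always name an active E2: Ube2cbp encodes a ligase that binds an E2, Ube2d-ps is a pseudogene, and Ube2v1 and Ube2v2 lack the catalytic cysteine.

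The stages were type A spermatogonia and type B spermatogonia, the dividing cells before meiosis, pachytene spermatocytes, which are in meiotic prophase, and round spermatids, the haploid cells after meiosis. Each stage was measured on 2 oligonucleotide arrays of total RNA, 8 arrays in all, from independent preparations of germ cells. All mice were of the strain BL/6-129, with no mutation or treatment named. The sources used here give neither their age nor the way the cells were purified.

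Ubiquitin is attached to proteins by a relay of enzymes. An E1 activates ubiquitin, an E2 takes it over as a thioester and, with an E3 ligase that selects the target, passes it on, and the choice of E2 helps to set which kind of ubiquitin chain is built. Spermatogenesis makes heavy use of the system, from histone ubiquitination around meiosis to the removal of histones and cytoplasm in spermatids, and male mice that lack Ube2b are infertile.

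Marker genes went along with the labels in part. All 9 pachytene markers were called higher in pachytene cells than in type A cells, and 7 of 9 spermatid markers were called higher in spermatids than in pachytene cells. The sum of the pachytene markers did not fall after that stage, at 23947 and 24827 in spermatids against 19177 and 20481 in pachytene cells. Single ones did: of the 9, 1 was called higher and 2 lower in spermatids over pachytene. Piwil1 went from 1792 and 1621 in pachytene cells to 309.3 and 230.9 in spermatids. Some markers ran against their list: Id4, listed for type A, had 1460 and 1321 in pachytene cells against 197.1 and 314.5 in type A. Type B replicate 2 stood apart. Its summed signal of the pachytene markers was 9982 against 798.5 in type B replicate 1, with 705.2 and 560 in type A, and its spermatid markers summed to 2192 against 188.7. The 8 stromal cell markers summed to 808.9 to 1292 on the 4 later arrays, against 11110 to 16936 on the 4 spermatogonial ones, and the 10 Sertoli cell markers to 7247 to 12662 in spermatogonia, to 3659 and 5004 in pachytene cells and to 952.6 and 1127 in spermatids. The 7 macrophage markers summed to 2044 and 2271 in spermatids, against 309.5 to 879 on the 6 other arrays. Most of the spermatid sum was 1 gene, Aif1, at 1579 and 1819. In spermatids over type A, 1 of the 6 macrophage markers tested was called higher and 2 lower. The marker sums move along the same stages as the E2 genes described here, and their part in the results was not tested. In such bulk samples, fewer cells of a type and less RNA per cell cannot be told apart.

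The E2 genes did not move as a block. Of the 31 tested genes, 24 differed between stages by the F test of limma at an adjusted p under 0.05, beside 78.5% of all 14155 genes tested. Among the 24, the highest stage mean lay in spermatids for 10 genes, in type A for 7, in type B for 4 and in pachytene cells for 3. This count was not made over all genes, and no gene was called between type A and type B. The gap between those stages can be small, as for Ube2e3 with log2 means of 10.568 and 10.565. In pachytene cells against type A, 8 E2 genes rose and 13 fell, beside 27.2% and 35.6% of all genes. Their median log2 change was -0.07, and that of all genes was -0.14.

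Between spermatids and pachytene cells, 6 E2 genes rose and 3 fell, beside 15.9% and 19% of all genes, with a median of -0.07 for the E2 genes and -0.07 for all. Across the whole span, spermatids against type A, 11 rose and 10 fell, beside 28.2% and 41.9% of all genes, with medians of 0.20 and -0.31. These comparisons share arrays. The shares of the 31 E2 genes called higher and lower were 25.8% and 41.9%, then 19.4% and 9.68%, and then 35.5% and 32.3%. They lay near the background, so the results concern which members moved and which paralogs parted, not a shift of the family. In what follows, ± is the standard error of the limma fit on log2(signal + 16), with 2 arrays against 2, and p-values are adjusted over all genes.

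**Figure D1:**
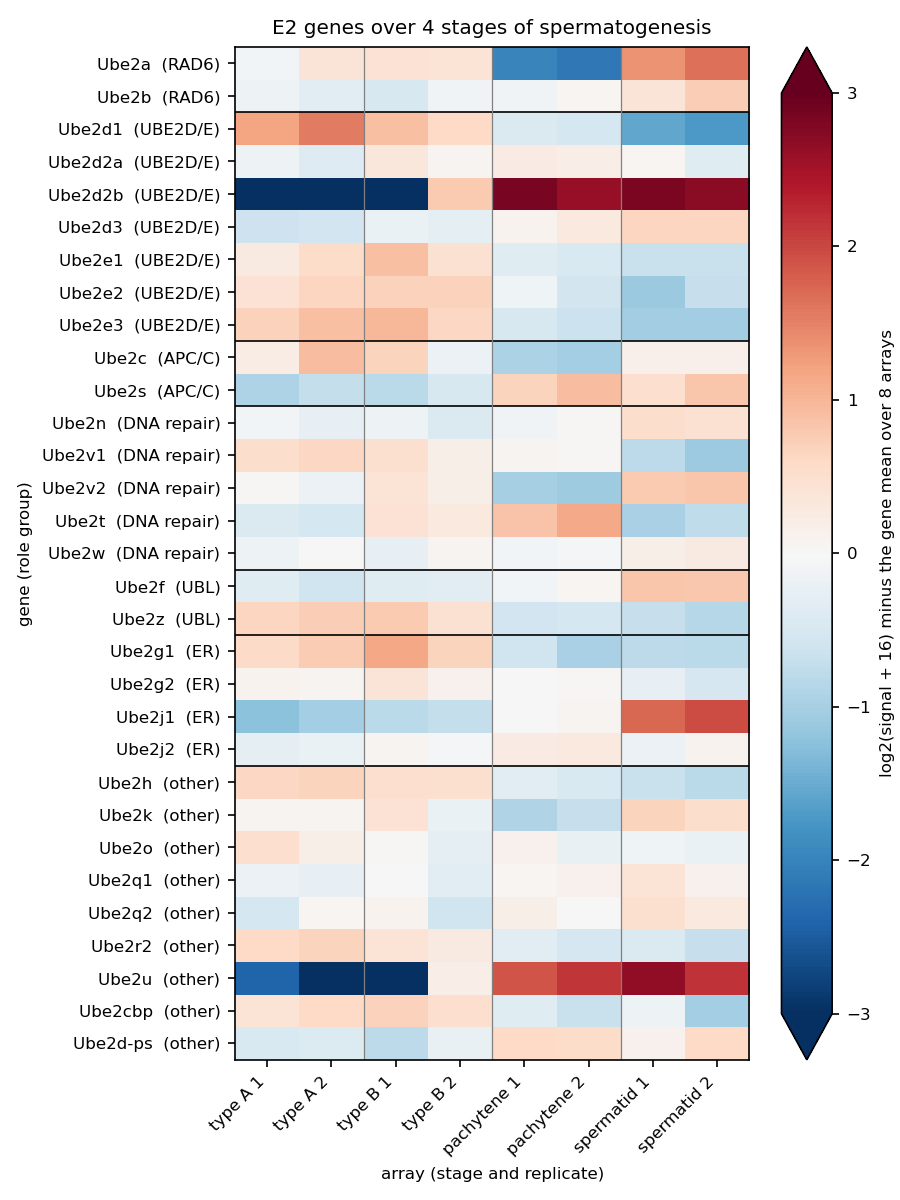
Colour gives log2(signal + 16) minus the mean of the gene over the 8 arrays, for the 31 tested E2 genes (rows, grouped by role) on each array (columns, by stage). Ube2a is lowest on both pachytene arrays, and Ube2d2b and Ube2u are low on 3 of the 4 spermatogonial arrays and not on type B replicate 2.

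The level of each array matters for the falls. The deposited signals had an equal trimmed mean on every array. When arrays were centred instead on autosomal ribosomal protein genes, the median change of all genes moved to 0.69 in pachytene over type A and to 0.55 in spermatids over type A. With that centring the split of E2 genes was 16 higher and 2 lower in pachytene over type A, the 2 being Ube2a and Ube2d1. In spermatids over type A it was 17 higher and 2 lower, Ube2d1 and Ube2e3. Centring on the 75th percentile moved the median of all genes to 0.24 and 0.13, with 12 E2 genes higher and 9 lower, and 16 higher and 9 lower. Between spermatids and pachytene cells ribosomal centring moved the median by less, to -0.03. There 3 E2 genes were still lower with that centring, Ube2d1, Ube2t at -1.83 (0.00046) and Ube2v1 at -0.96 (0.0412). In each comparison with type A, falls other than the 2 named for it were not called with ribosomal centring. All changes are relative to the scaling chosen. Whether ribosomal protein genes keep their level over the stages was not tested.

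The RAD6 pair, Ube2a and Ube2b, encodes nearly identical E2s that act with Rad18 on the replication clamp PCNA, with Rnf20 and Rnf40 on histone H2B, and with Ubr2 in the N-degron pathway. Ube2a is X-linked and Ube2b lies on chromosome 11. By its main probe set, the X-linked copy fell at pachytene and rose in spermatids. The autosomal copy, by its own main probe set, did not pass the test at pachytene and was higher in spermatids than in type A. Their other probe sets differed from these in part. Their promoters are shown because the calls of these close paralogs differ at pachytene, each from 250 bases before to 50 after the transcript start (RefSeq, GRCm38.p6). Ube2a spans chrX:36874045-36874344 on the plus strand, and Ube2b, at the more upstream of its 2 listed starts, chr11:52000737-52001036 on the minus strand. Capitals mark the cyclic AMP response element TGACGTCA, the element bound by CREM in round spermatids, or its core TGACG, on either strand.
Ube2a: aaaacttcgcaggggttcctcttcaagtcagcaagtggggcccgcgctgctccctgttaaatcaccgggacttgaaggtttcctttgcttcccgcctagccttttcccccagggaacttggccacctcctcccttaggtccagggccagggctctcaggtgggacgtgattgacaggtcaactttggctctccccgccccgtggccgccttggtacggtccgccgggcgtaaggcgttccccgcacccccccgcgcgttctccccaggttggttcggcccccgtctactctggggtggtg
Ube2b: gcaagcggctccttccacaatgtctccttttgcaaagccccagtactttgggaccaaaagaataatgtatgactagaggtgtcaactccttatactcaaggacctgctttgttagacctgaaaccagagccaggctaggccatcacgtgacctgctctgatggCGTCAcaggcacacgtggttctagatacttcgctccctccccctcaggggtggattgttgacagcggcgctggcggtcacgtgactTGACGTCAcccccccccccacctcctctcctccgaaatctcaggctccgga

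The Ube2b window held 1 full element and 3 cores, 2 of which lie within the full element, and the Ube2a window held 0 of either. The 27 member genes with a window had 36 windows. The full element was in 2 of the 36, of Ube2b and Ube2h, and in 1.79% of all 32851 windows. The core was in 10 of the 36, and in 20.81% of all windows. A match of letters is a description and not a binding site.

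Ube2a had signals of 215.2 and 303.1 in type A, 312.1 and 309.2 in type B, 45.6 and 39.6 in pachytene cells and 605.7 and 753.6 in spermatids. Both pachytene arrays were far below every other array and both spermatid arrays above. The gene fell by 2.21 on the log2 scale in pachytene cells against type A (± 0.22, adjusted p = 0.000144), rose by 3.56 ± 0.22 in spermatids against pachytene cells (5.27e-05) and ended 1.35 ± 0.22 above type A (0.000888). In linear signal the pachytene mean was 0.164 times that of type A, and the spermatid mean 15.95 times that of pachytene cells.

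Ube2b read 685.5 and 612.9 in type A, 546.1 and 718.4 in type B, 710.5 and 806.5 in pachytene cells and 1004 and 1292 in spermatids. The spermatid arrays were the 2 highest, and the first 3 stages overlapped or lay close together. Its change was 0.22 ± 0.22 in pachytene over type A (0.425) and 0.58 ± 0.22 in spermatids over pachytene (0.0812), and it rose by 0.80 ± 0.22 in spermatids over type A (0.0126). That last call was lost without type A replicate 2 (adjusted p = 0.0633), without spermatid replicate 2 (0.09) and after quantile normalization (0.201).

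Other X-linked genes were lower at pachytene too, and fewer were higher afterwards. Of 477 X-linked genes tested, 349 fell and 22 rose in pachytene cells against type A, 73.2% and 4.61%, with a median of -1.71. In spermatids against pachytene cells, 147 rose and 37 fell, 30.8% and 7.76%, with a median of 0.34. The change of Ube2a was the 154th lowest of the 477 in the first comparison and the 12th highest in the second. Relative to type A, X-linked genes in spermatids still had a median of -1.33, with 65 higher and 297 lower, and Ube2a was among the 65.

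The second, dimmer Ube2a probe set shared the fall but not the height of the return. Its signals were 120.5 and 114.3 in type A, 126.3 and 125.8 in type B, 23.4 and 13.9 in pachytene cells and 42.2 and 34.6 in spermatids. In a fit over all 24514 probe sets it changed by -1.96 ± 0.21 in pachytene over type A (0.000197), 0.66 ± 0.21 in spermatids over pachytene (0.0471) and -1.30 ± 0.21 in spermatids over type A (0.000901). Whether spermatids held more or less Ube2a RNA than type A cells thus depended on the probe set. With the mean of both, the change over type A was 0.03 (adjusted p = 0.902). Ube2b had 4 tested probe sets. In pachytene over type A, the second brightest rose by 1.49 ± 0.24 (0.000932), with 578 and 635.1 against 208.5 and 203.1. The 2 dimmest changed by -2.31 ± 0.74 (0.0253) and -1.55 ± 0.47 (0.02). With the mean of the 4, the change of Ube2b in spermatids over type A turned to -0.51 (0.141).

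**Figure D2:**
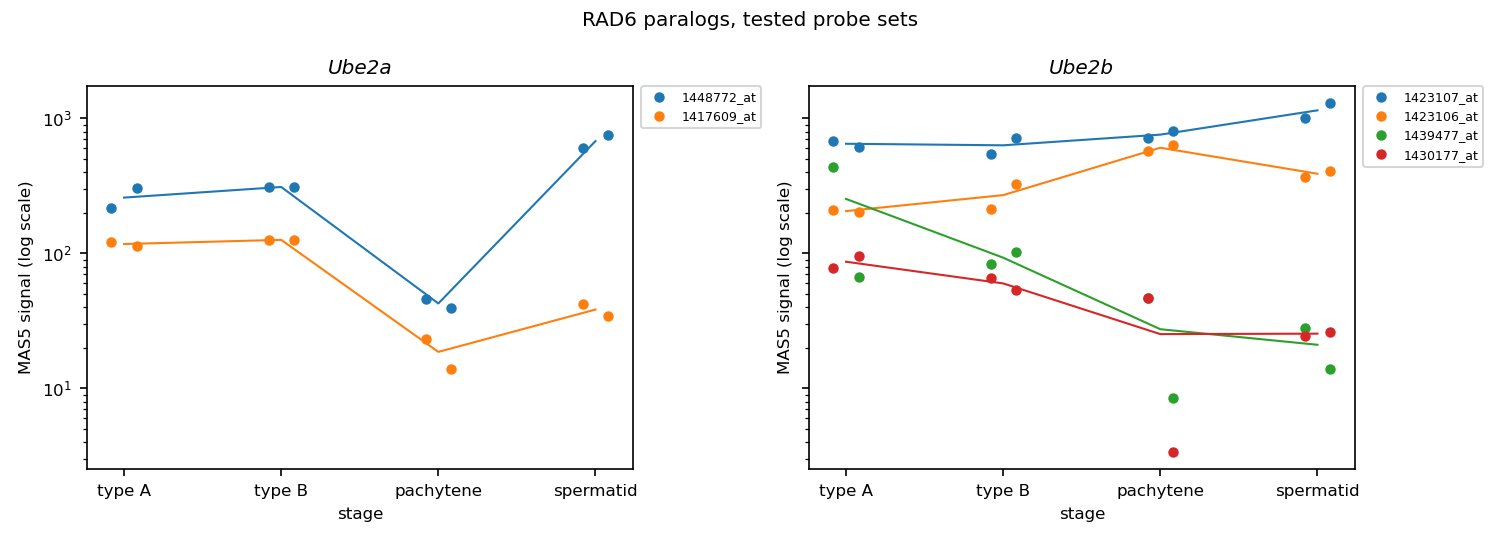
MAS5 signal (log axis) of every tested probe set of Ube2a and Ube2b by stage, with points for single arrays and lines through stage means. Both Ube2a probe sets are lowest at pachytene and differ in spermatids, and the 4 Ube2b probe sets run in different directions.

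The UBE2D genes encode broad-use E2s that serve many RING and HECT ligases, and they split in opposite directions. By their main probe sets, Ube2d2b, an intronless relative of Ube2d2a known from testis, and Ube2d3 rose. Ube2d1 fell from type A to pachytene cells and again to spermatids, and the main probe set of Ube2d2a did not change by the test. Ube2d2b is close in sequence to Ube2d2a, and cross-hybridization was not tested. Its promoter is shown because it had the largest rise of all members. It spans chr5:107829912-107830211 on the plus strand (RefSeq, GRCm38.p6), and capitals mark its 1 core TGACG, here on the minus strand.
Ube2d2b: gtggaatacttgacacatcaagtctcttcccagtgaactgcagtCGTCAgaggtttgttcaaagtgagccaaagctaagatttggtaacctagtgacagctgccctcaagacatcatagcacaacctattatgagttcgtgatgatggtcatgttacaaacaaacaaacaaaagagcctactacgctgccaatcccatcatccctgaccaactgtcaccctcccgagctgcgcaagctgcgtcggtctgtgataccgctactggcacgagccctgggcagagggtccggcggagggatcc

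Ube2d2b had signals of 7.8 and 3.9 in type A, 10.9 and 591.5 in type B, 2524 and 2149 in pachytene cells and 2485 and 2277 in spermatids. It was near the bottom of the scale on 3 spermatogonial arrays, intermediate on type B replicate 2, and high on all 4 later arrays. The change was 6.75 ± 1.14 in pachytene over type A (0.00116) and 0.03 ± 1.14 in spermatids over pachytene (0.988). The type B replicates lay 4.497 log2 apart, which widened the error. Without both type B arrays, the change over type A was 6.75 ± 0.19 (1.24e-07). The type A signals lay far below the array medians, so the size of this change is set by the pseudocount and was 5.10 with a pseudocount of 64.

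Ube2d1 ran the other way, with 181.1 and 242.4 in type A, 147.7 and 117.3 in type B, 48.6 and 44.7 in pachytene cells and 13.5 and 10.6 in spermatids. The 4 stages did not overlap and stood in this order. It was the 1 E2 gene called lower at both steps, by -1.85 ± 0.22 in pachytene over type A (0.000225) and -1.16 ± 0.22 in spermatids over pachytene (0.00416), and -3.01 ± 0.22 in all (1.8e-05). Its spermatid signals lay below the array medians, so the size of these changes depends on the pseudocount. With a pseudocount of 64 they were -1.31 in the first step, -0.54 in the second and -1.85 in all. Under ribosomal centring the fall of Ube2d1 in pachytene over type A and in spermatids over type A was still called.

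Ube2d3 read 1797 and 1837 in type A, 2398 and 2280 in type B, 2940 and 3360 in pachytene cells and 4288 and 4307 in spermatids. These values climbed from stage to stage without overlap. It rose by 0.79 ± 0.18 in pachytene over type A (0.00537) and by 1.23 ± 0.18 in spermatids over type A (0.000443), but with the mean of its 7 probe sets these became -0.12 (0.564) and -0.49 (0.0357), a reversal. Ube2d2a read 1643 and 1414 in type A, 2341 and 1948 in type B, 2176 and 2102 in pachytene cells and 1922 and 1428 in spermatids, with overlapping stages and 0.12 ± 0.22 in spermatids over type A (0.644).

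The pseudogene Ube2d-ps read 117.4 to 167 in pachytene cells and spermatids, against 54.2 to 87.7 in spermatogonia, and rose by 1.01 ± 0.25 in pachytene over type A (0.00759). Its transcripts resemble those of the parent genes, so the source of this signal is uncertain.

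The 3 UBE2E genes, which carry an N-terminal extension ahead of a UBE2D-like core, all fell and stayed low. Ube2e3 read 1395 and 1618 in type A, 1716 and 1309 in type B, 602.8 and 541.5 in pachytene cells and 404.8 and 404.2 in spermatids. It fell by 1.37 on the log2 scale in pachytene over type A (± 0.21, adjusted p = 0.000697) and by 1.85 in spermatids over type A (± 0.21, 0.00012).

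Ube2e1 had 792.7 and 957.1 in type A, 1231 and 905.6 in type B, 500 and 467.5 in pachytene cells and 401.5 and 402.8 in spermatids. Ube2e2 had 171.7 and 200.2 in type A, 209.2 and 208.5 in type B, 110 and 78.9 in pachytene cells and 48.4 and 69.4 in spermatids. For both, every later array was below every spermatogonial one. The changes in pachytene over type A were -0.83 ± 0.22 for Ube2e1 (0.0099) and -0.88 ± 0.23 for Ube2e2 (0.0101). Without type A replicate 2 these 2 calls were lost (adjusted p = 0.0602 and 0.0573), as they were without pachytene replicate 2 (0.0588 and 0.0824), and under ribosomal centring they became 0.00 and -0.05.

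The anaphase-promoting complex, the ligase that ends mitosis and meiosis by marking securin and cyclins, uses Ube2c to start chains and Ube2s to extend them. The starter fell at pachytene while the extender rose. Ube2c read 464.6 and 764.3 in type A, 637.6 and 351.2 in type B, 198.3 and 186.9 in pachytene cells and 440.5 and 444.2 in spermatids. The 2 pachytene arrays were below all others, and spermatids overlapped with spermatogonia. It fell by 1.55 on the log2 scale in pachytene over type A (± 0.32, 0.00326), or -0.73 (0.126) under ribosomal centring.

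In spermatids over pachytene Ube2c rose by 1.14 ± 0.32 (0.0267). This rise was not called when either pachytene or either spermatid array was left out (adjusted p of 0.0989 and 0.116 without pachytene replicates 1 and 2, 0.107 and 0.119 without spermatid replicates 1 and 2), nor after quantile normalization (0.0542). Ube2s read 809.4 and 940.5 in type A, 879.2 and 1115 in type B, 2503 and 3007 in pachytene cells and 2225 and 2811 in spermatids. All 4 later arrays were well above the highest spermatogonial one. Ube2s rose by 1.63 ± 0.23 in pachytene over type A (0.000451) and its change in spermatids over pachytene was -0.13 ± 0.23 (0.705). Its probe set carries the suffix of sets that match several transcripts.

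Of 16 listed subunits and activators of the complex, 4 rose and 6 fell in pachytene over type A, shares near the 27.2% and 35.6% of all genes. After pachytene, in spermatids, 3 rose and 2 fell, beside 15.9% and 19% of all genes. Cdc27, a subunit that holds the activator, had 578.9 and 544.7 in pachytene cells against 159.1 and 214 in type A, a rise of 1.52 ± 0.21 (0.000471). The activator Fzr1 rose by 1.33 ± 0.18 (0.000449). Among the core subunits that fell were Cdc23 at -2.36 ± 0.19 (8.06e-05), Cdc16 at -2.29 ± 0.26 (0.000207) and Anapc4 at -1.68 ± 0.24 (0.000503). Anapc10 rose late, by 1.74 ± 0.26 in spermatids over pachytene (0.00155).

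Among E2s of DNA repair, Ube2t, which ubiquitinates the Fanconi protein Fancd2, peaked at pachytene. Its signals were 455.8 and 423.8 in type A, 839.3 and 759.2 in type B, 1126 and 1382 in pachytene cells and 306.1 and 358.2 in spermatids. No 2 stages overlapped, and spermatids were lowest. It rose by 1.47 ± 0.20 in pachytene over type A (0.000412) and fell by 1.86 on the log2 scale in spermatids over pachytene (± 0.20, 0.000292).

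Ube2n is the E2 that builds non-degradative chains, and it works only with an inactive partner, Ube2v1 or Ube2v2. Ube2v1 fell and Ube2v2 rose in spermatids over pachytene cells by their main probe sets. Ube2v1 read 1008 and 1074 in type A, 974.2 and 792.9 in type B, 735.9 and 710.9 in pachytene cells and 394.6 and 317.2 in spermatids. Both spermatid arrays were below all others. It fell by 1.00 on the log2 scale in spermatids over pachytene (± 0.20, 0.00635), a call lost without spermatid replicate 2 (adjusted p = 0.0563), and by 1.51 in spermatids over type A (± 0.20, 0.000293).

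Ube2v2, the partner known from the ubiquitination of PCNA, read 305.7 and 262.3 in type A, 403.8 and 343.5 in type B, 142.9 and 133.8 in pachytene cells and 529.7 and 549.1 in spermatids. As with Ube2a, pachytene arrays were lowest and spermatid arrays highest, with no overlap. It fell by 0.96 on the log2 scale in pachytene over type A (± 0.19, 0.00265) and rose by 1.85 ± 0.19 in spermatids over pachytene (0.000241), but with the mean of its probe sets these were -0.35 (0.0763) and 0.32 (0.152). Ube2v2 lies on chromosome 16.

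Ube2n itself read 1818 and 1736 in spermatids, against 937.2 to 1283 on the 6 other arrays, a rise of 0.65 ± 0.19 over type A (0.016). That call was lost without type A replicate 2 (adjusted p = 0.076) and without spermatid replicates 1 and 2 (0.0733 and 0.0539), and became 0.18 (0.448) after quantile normalization and -0.02 (0.908) with the mean of its probe sets. Ube2w, which ubiquitinates the N-terminus of proteins, read 387.9 to 561.6 over all arrays by its main probe set, whose largest change was 0.30 ± 0.19. A second probe set of Ube2w had 53.7 and 96.3 in spermatids against 270.4 and 283.2 in pachytene cells, a change of -1.73 ± 0.29 (0.00329), and changed by -1.97 ± 0.29 over type A (0.000575). With the mean of its probe sets, the change of Ube2w in spermatids over type A was -0.55 (0.0234).

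For E2s of ubiquitin-like proteins, the direction again depended on the gene. Ube2f, which conjugates Nedd8 to cullins, read 372.9 and 311.6 in type A, 371.3 and 385.6 in type B, 454.1 and 497.4 in pachytene cells and 874 and 856.4 in spermatids. The spermatid arrays were far above the rest. It rose by 0.84 ± 0.19 in spermatids over pachytene (0.00924) and by 1.30 ± 0.19 over type A (0.000403). The first of these was not called without pachytene replicate 1 (adjusted p = 0.0722), without spermatid replicate 1 or 2 (0.0533 and 0.0522) or with the mean of its probe sets (0.0914). Its probe set carries the suffix of sets that may cross-hybridize.

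Ube2z, charged by the E1 Uba6, read 627.3 and 675.7 in type A, 689.4 and 553.2 in type B, 260 and 269.5 in pachytene cells and 239 and 212.8 in spermatids. The later arrays were all below the earlier ones. It fell by 1.25 on the log2 scale in pachytene over type A (± 0.20, 0.000799), or -0.42 (0.242) under ribosomal centring and -0.13 (0.548) with the mean of its probe sets.

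The E2s of the endoplasmic reticulum clear misfolded proteins from that compartment. Ube2j1 and Ube2j2 are anchored in its membrane, Ube2g2 is recruited to it, and Ube2g1 is the soluble relative of Ube2g2. Ube2j1 is required for spermatid development in mice. It was the 1 E2 gene called higher at both steps, and its promoter is shown for that reason, at chr4:33031130-33031429 on the plus strand (RefSeq, GRCm38.p6). Capitals mark 4 cores TGACG on either strand.
Ube2j1: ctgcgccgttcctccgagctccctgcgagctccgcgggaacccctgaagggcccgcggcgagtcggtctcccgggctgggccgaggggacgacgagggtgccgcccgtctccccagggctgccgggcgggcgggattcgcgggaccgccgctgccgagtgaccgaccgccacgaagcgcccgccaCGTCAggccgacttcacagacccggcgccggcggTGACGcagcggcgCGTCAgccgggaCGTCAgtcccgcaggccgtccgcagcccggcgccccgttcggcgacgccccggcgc

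Ube2j1 read 231.9 and 269.7 in type A, 318.5 and 338.2 in type B, 574.8 and 598.5 in pachytene cells and 1903 and 2236 in spermatids. Each stage was above the one before it, with no overlap. It rose by 1.18 ± 0.19 in pachytene over type A (0.000944), by 1.79 ± 0.19 in spermatids over pachytene (0.000286) and by 2.97 ± 0.19 in all (1.3e-05). In linear signal the spermatid mean was 8.25 times that of type A. With the mean of its probe sets the step after pachytene was 0.34 (0.14) and not called.

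Its relative Ube2j2 read 690.9 and 740.6 in type A, 901.6 and 831.6 in type B, 1015 and 1039 in pachytene cells and 746.3 and 911.5 in spermatids. Pachytene arrays were highest and the other stages lay close to each other. The rise in pachytene over type A was 0.51 ± 0.19 (0.0442). It was not called with the replicate block (0.0513) or when any array of type A, pachytene or spermatids was left out (adjusted p = 0.0528 to 0.155), and turned to -0.57 (0.0857) with the mean of its 2 probe sets.

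Ube2g1 read 551.8 and 633.1 in type A, 832.1 and 593.9 in type B, 235.9 and 179 in pachytene cells and 204.1 and 203.8 in spermatids. The break lay between the spermatogonial and the later arrays, with a change of -1.45 ± 0.23 in pachytene over type A (0.00092), or -0.63 (0.126) under ribosomal centring. Ube2g2 read 216.5 and 212.4 in type A, 265.6 and 221.7 in type B, 201.6 and 203.8 in pachytene cells and 167.2 and 137 in spermatids. Its change of -0.46 ± 0.19 in spermatids over type A did not pass (0.0626), and the mean of its 2 probe sets gave 0.53 (0.0186).

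Of the remaining E2 genes, Ube2u stood out. Little is known of its function. Its promoter is shown as that of the second largest rise, at chr4:100478617-100478916 on the plus strand (RefSeq, GRCm38.p6). Capitals mark the X-box, which RFX factors bind, searched as GTTGC, then 2 bases of any kind, then GGCAAC. It overlaps with a match of the X-box core GTTGCC on the other strand.
Ube2u: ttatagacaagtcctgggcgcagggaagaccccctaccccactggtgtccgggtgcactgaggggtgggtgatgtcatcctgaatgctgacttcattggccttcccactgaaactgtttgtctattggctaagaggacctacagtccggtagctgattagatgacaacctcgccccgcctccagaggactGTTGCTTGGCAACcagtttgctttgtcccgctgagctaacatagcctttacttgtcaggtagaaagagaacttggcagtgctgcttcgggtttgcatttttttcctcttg

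This full form was in 1 of 36 member windows and in 0.14% of all windows, and was chosen after the sequences were seen. The core GTTGCC was in 10 of 36 member windows and in 12.51% of all windows. Ube2u read 30.2 and 7.9 in type A, 8.7 and 262.3 in type B, 886.9 and 1059 in pachytene cells and 1520 and 1069 in spermatids. As with Ube2d2b, type B replicate 2 stood between the other spermatogonial arrays and the later ones. It rose by 4.89 ± 0.93 in pachytene over type A (0.00212), or by 4.89 ± 0.32 without both type B arrays (3.92e-06). Its type A signals were also below the array medians, and with a pseudocount of 64 the rise was 3.65. Its change in spermatids over pachytene was 0.39 ± 0.93 (0.795).

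Ube2k, which extends degradative chains, dipped at pachytene. It read 1494 and 1510 in type A, 1906 and 1233 in type B, 747.2 and 868.4 in pachytene cells and 2263 and 2046 in spermatids. Pachytene arrays were lowest and spermatid arrays highest, without overlap. It fell by 0.89 on the log2 scale in pachytene over type A (± 0.24, 0.0121) and rose by 1.40 ± 0.24 in spermatids over pachytene (0.0029). The fall was not called without pachytene replicate 1 (adjusted p = 0.0776) or with the 75th percentile (0.114), and was -0.06 (0.891) under ribosomal centring, while the rise became 0.56 (0.0775) with the mean of the probe sets.

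Ube2r2 and Cdc34, an E2 by function that the naming rule does not take in, both build chains for cullin-RING ligases, and they moved apart. Ube2r2 read 414.3 and 433.8 in type A, 357 and 327.3 in type B, 208.2 and 184.1 in pachytene cells and 191.9 and 160.4 in spermatids, a change of -1.05 ± 0.19 in pachytene over type A (0.0016), or -0.23 (0.529) under ribosomal centring. Cdc34 read 448.2 and 483.2 in type A, 600.2 and 598.3 in type B, 552.1 and 733.9 in pachytene cells and 1244 and 2005 in spermatids, a rise of 1.29 ± 0.26 in spermatids over pachytene (0.00646).

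Ube2h, the E2 of the CTLH ligase, read 287.2 to 408.8 in pachytene cells and spermatids, against 726.8 to 826 in spermatogonia, and fell by 1.03 on the log2 scale in pachytene over type A (± 0.18, 0.00138), or -0.20 (0.561) under ribosomal centring. The dim Ube2cbp read 7.0 to 25.8 in pachytene cells and spermatids, against 45.7 to 58.7 in spermatogonia. It fell by 1.01 on the log2 scale in pachytene over type A (± 0.29, 0.0162), a call lost without type A replicate 2 (adjusted p = 0.0788) and without pachytene replicate 2 (0.0989). Ube2o, a large enzyme with both E2 and E3 activity, read 281.3 to 491.9, and none of its changes passed.

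By the probe sets that stood for them, the related Ube2q1 and Ube2q2 were not called in any comparison. Ube2q1 read 434.8 and 407.6 in type A, 497.1 and 387.9 in type B, 511.4 and 536.6 in pachytene cells and 658 and 534.9 in spermatids. Ube2q2 read 154.2 and 236.4 in type A, 246.9 and 144.4 in type B, 258.1 and 231.9 in pachytene cells and 324.8 and 282.7 in spermatids. In spermatids over type A they stood at 0.48 ± 0.21 (0.0688) and 0.62 ± 0.29 (0.0879). With a pseudocount of 64, Ube2q1 passed there at 0.44 (0.0381). A second, dimmer probe set of Ube2q1 rose by 0.63 ± 0.20 in pachytene over type A (0.0236) and by 0.57 ± 0.20 in spermatids over type A (0.0311).

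**Figure D3:**
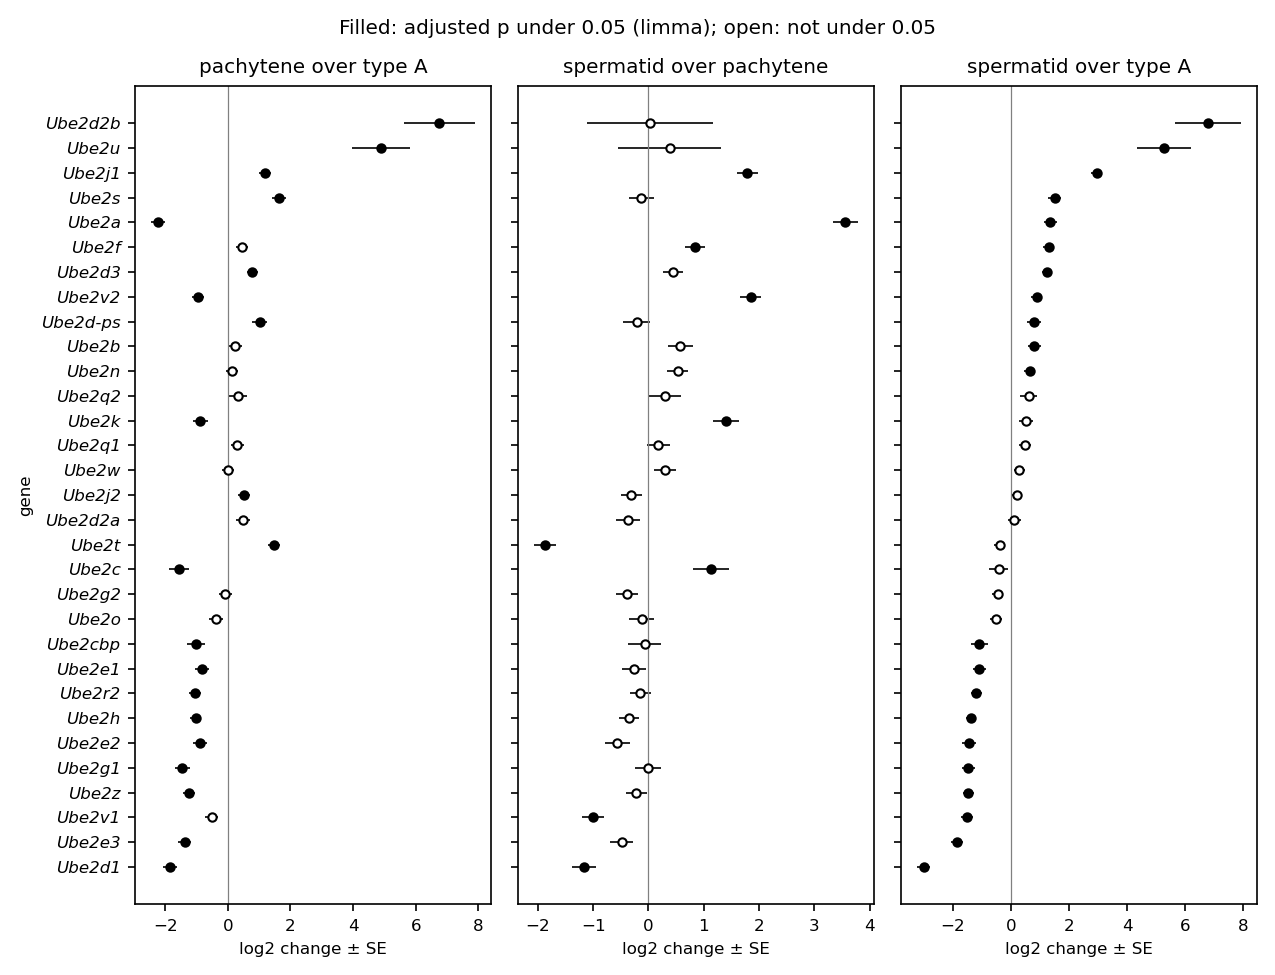
Log2 change with its standard error for the 31 tested E2 genes (rows, sorted by spermatid over type A) in 3 comparisons, filled where the adjusted p of limma was under 0.05. Ube2d2b, Ube2u and Ube2j1 lie at the top and Ube2d1 at the bottom. Under ribosomal centring, 2 of the 13 falls in pachytene over type A and 2 of the 10 in spermatids over type A were still called.

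The step from type B to pachytene cells rests on the type B arrays, of which replicate 2 stood apart. In pachytene over type B, 6 E2 genes rose and 13 fell, beside 25.5% and 32.7% of all genes. The 5 largest rises were Ube2d2b at 4.20 ± 1.14 (0.0138), Ube2u at 3.57 ± 0.93 (0.0115), Ube2s at 1.46 ± 0.23 (0.001), Ube2d-ps at 1.08 ± 0.25 (0.00655) and Ube2j1 at 0.81 ± 0.19 (0.00726). Without type B replicate 2 the first 2 were 6.45 ± 0.24 (7.36e-07) and 5.32 ± 0.39 (1.23e-05), and without type B replicate 1 they were 1.95 ± 0.24 (0.000335) and 1.82 ± 0.39 (0.00463). Ube2d2b was not called without pachytene replicate 1 (adjusted p = 0.0619) or replicate 2 (0.0516), nor Ube2u without pachytene replicate 2 (0.0552). Ube2t, the smallest of the 6 rises at 0.63 ± 0.20 (0.0255), was not called without pachytene replicate 2 (0.162) or without type B replicate 2 (0.0691). Without pachytene replicate 2, 3 rises were thus left.

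The 5 largest falls in pachytene over type B were Ube2a at -2.48 ± 0.22 (0.000142), Ube2g1 at -1.70 ± 0.23 (0.000593), Ube2e3 at -1.37 ± 0.21 (0.000922), Ube2v2 at -1.33 ± 0.19 (0.000696) and Ube2d1 at -1.24 ± 0.22 (0.00173). With the mean of its probe sets Ube2v2 was at -0.38 (0.0621). Under ribosomal centring, which put the median of all genes at 1.04, 18 E2 genes were higher and 1 lower, Ube2a. With the 75th percentile, at a median of 0.25, 11 were higher and 11 lower.

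Between type B and type A, limma called 0 E2 genes higher and 0 lower, beside 0% of all genes, and the smallest adjusted p over all genes was 0.347. At an unadjusted p under 0.05, 1 E2 gene was higher and 1 lower, beside 789 and 594 of all genes. The 2 largest log2 changes were those of Ube2d2b at 2.55 ± 1.14 (0.512) and Ube2u at 1.32 ± 0.93 (0.6). Without type B replicate 1 these 2 passed, at 4.80 (1.03e-05) and 3.07 (0.0014), and without type B replicate 2 they were 0.31 (0.791) and -0.43 (0.824).

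Paralogs were then set against each other on the same array, as the difference in log2(signal + 16) between the genes of a pair. Array scaling cancels in it only where both signals lie far above 16, unlike those of Ube2d1 in spermatids or Ube2d2b in type A. Other scalings were not run for the pairs. Of 16 pairs listed, 14 had both genes tested, and an exact permutation test over the 105 ways to split 8 arrays into 4 pairs asked whether that difference varied with stage. The smallest p this design gives is 0.0095. Of the 14 pairs, 9 had a Benjamini-Hochberg adjusted p under 0.05 over the 14. This count was not made for other pairs of genes, and 78.5% of all genes tested differed between stages by the F test of limma. Whether E2 paralogs part more often than other genes was thus not tested. The pairs were chosen with earlier results of these data known. A difference between probe sets of different genes is no difference in level, so only its change over stages is read.

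Ube2d1 lost ground to both Ube2d3 and Ube2d2a at each stage. The difference Ube2d1 minus Ube2d3 was -3.20 and -2.84 in type A, -3.88 and -4.11 in type B, -5.52 and -5.80 in pachytene cells and -7.19 and -7.35 in spermatids. Stages did not overlap, and their means spanned 4.25 against a largest replicate gap of 0.36 (exact permutation p = 0.0095, adjusted 0.0267). The size of this span depends on the pseudocount, because Ube2d1 was dim in spermatids. Ube2d1 minus Ube2d2a spanned 3.13 against a gap of 0.61, with the same exact p and adjusted p. Ube2d2a minus Ube2d3 spanned 1.24 against 0.43 (exact p = 0.0286, adjusted 0.0444). It was not called when any 1 array was left out (adjusted exact p = 0.0533 to 0.097) or with the mean of all probe sets (0.4).

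Ube2v1 minus Ube2v2 was 1.67 and 1.97 in type A, 1.24 and 1.17 in type B, 2.24 and 2.28 in pachytene cells and -0.41 and -0.76 in spermatids. Both spermatid arrays stood below all others (exact permutation p = 0.0095, adjusted 0.0267). The call was lost with the mean of all probe sets (adjusted exact p = 0.0741). Ube2r2 minus Cdc34 changed by -2.93 in spermatids over type A, with an exact p of 0.0095 and an adjusted p of 0.0267, and was not called without type A replicate 1 (0.0533). The smallest shift that passed was that of Ube2e1 minus Ube2e3, 0.77 in spermatids over type A against a largest replicate gap of 0.06 (exact p = 0.0095, adjusted 0.0267), although both genes fell. It was not called with the mean of all probe sets (adjusted exact p = 0.267).

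Ube2j1 minus Ube2j2 rose by 2.10 in spermatids over pachytene, and Ube2c minus Ube2s fell by 3.19 in pachytene over type A (exact p = 0.019 and adjusted 0.0381 for each). The first was not called without type A replicate 1 (adjusted exact p = 0.0571). The second was lost with the mean of all probe sets (0.0741), without type A replicate 1 or 2 (0.0741 and 0.08), without pachytene replicate 2 (0.08) and without spermatid replicate 1 or 2 (0.0889 and 0.0833). Ube2g1 minus Ube2g2 fell by 1.38 in pachytene over type A (exact p = 0.0286, adjusted 0.0444). It was not called without type A replicate 1 (adjusted exact p = 0.0571), pachytene replicate 2 (0.08) or spermatid replicate 1 or 2 (0.0833 and 0.0889).

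Ube2b minus Ube2a did not pass the adjusted threshold. It was 1.60 and 0.98 in type A, 0.78 and 1.18 in type B, 3.56 and 3.89 in pachytene cells and 0.72 and 0.77 in spermatids. Both pachytene arrays were far above the others, by 2.43 over type A at the mean, and the other 3 stages overlapped or nearly so (exact permutation p = 0.0381, adjusted 0.0533). Without type A replicate 2 the adjusted p was 0.0267.

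Ube2d2b minus Ube2d2a changed by 6.66 in spermatids over type A but had a gap of 4.76 within type B (exact p = 0.0667, adjusted 0.0848). It passed without type B replicate 1 (0.019) and without type B replicate 2 (0.0267). The pairs Ube2e1 and Ube2e2, Ube2e2 and Ube2e3, and Ube2q1 and Ube2q2 did not pass, with spans of 0.36, 0.49 and 0.22 against largest replicate gaps of 0.43, 0.41 and 0.66 (adjusted exact p = 0.574, 0.333 and 0.895). Without type A replicate 1, 4 of the 14 pairs passed.

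**Figure D4:**
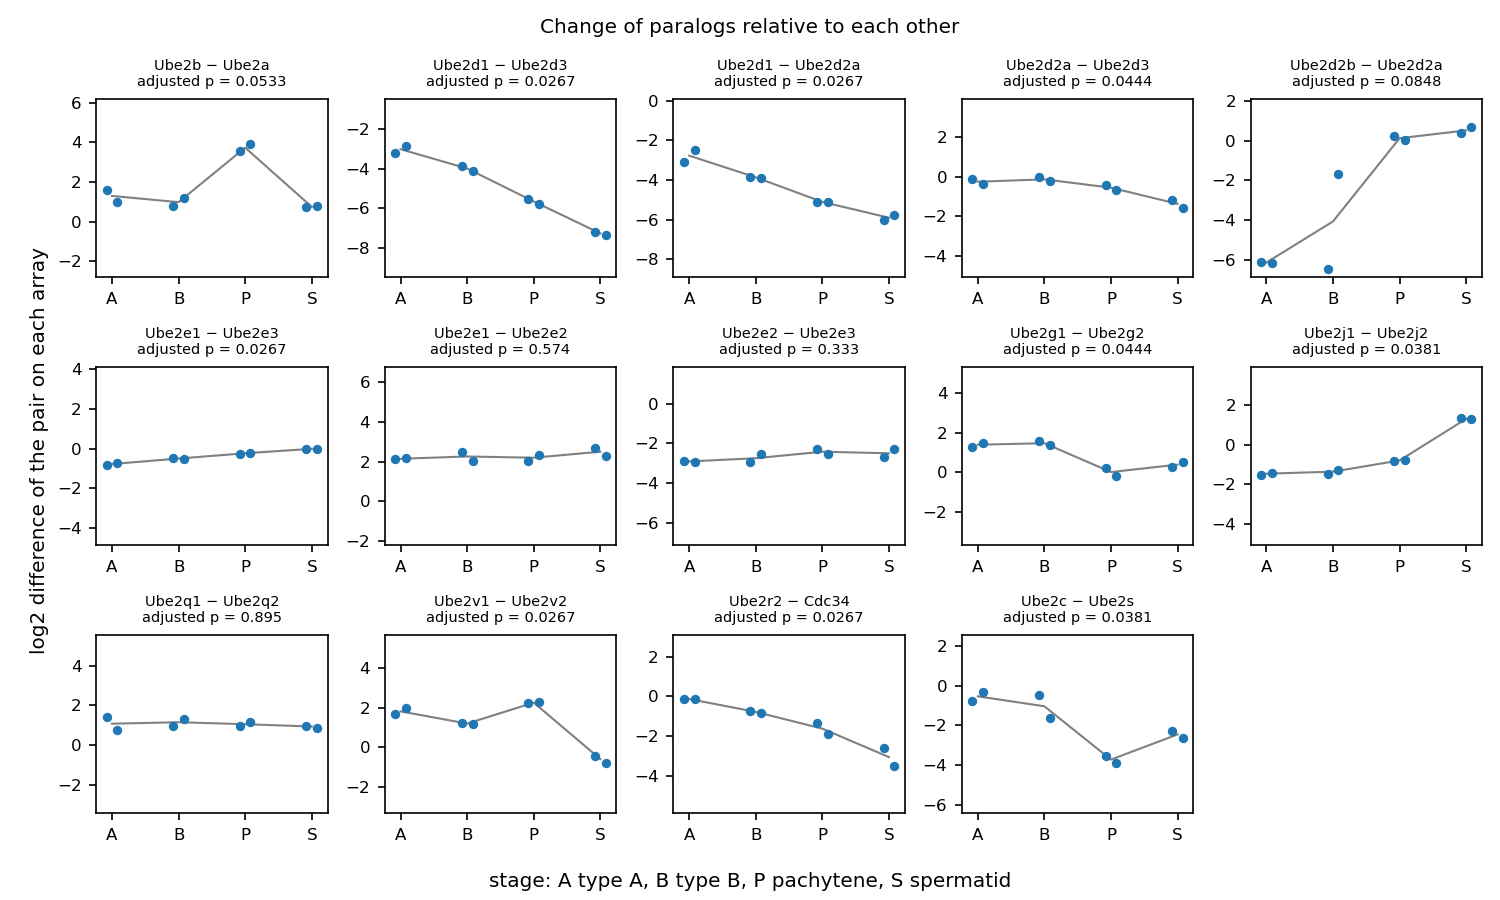
Log2 difference between the genes of each of the 14 tested pairs by stage, with points for single arrays, lines through stage means, and vertical axes of equal length. Ube2d1 minus Ube2d3 steps down at every stage, and Ube2b minus Ube2a is high only on the 2 pachytene arrays.

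Probe sets of the same gene often disagreed, which limits what can be said of its total RNA. Over 69 tested E2 probe sets, 16 rose and 26 fell in pachytene over type A, beside 23.7% and 35.9% of all probe sets. In spermatids over pachytene 9 rose and 13 fell, beside 12.7% and 18%, and in spermatids over type A 19 rose and 32 fell, beside 23.3% and 43.1%. Of 20 genes with at least 2 tested probe sets, 7 were called in both directions in spermatids over type A, namely Ube2a, Ube2b, Ube2d-ps, Ube2d2a, Ube2d3, Ube2n and Ube2v2. In pachytene over type A these were 4, Ube2b, Ube2d2a, Ube2d3 and Ube2z, and in spermatids over pachytene 1, Ube2j1. Genes called in both directions were not counted over the whole array, so whether E2 genes differ from other genes in this was not tested.

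Ube2d3 is the clearest case, with 7 probe sets. In spermatids over type A, the 2 that rose did so by 1.23 ± 0.19 (0.000616) and 1.51 ± 0.22 (0.00048). In the same comparison the probe set with the largest fall changed by -1.96 ± 0.19 (6.83e-05), with 31 and 31.6 in spermatids against 164.8 and 170.5 in type A. Of the other 4, 3 were called lower.

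Ube2j1 had a second probe set that rose by 1.04 ± 0.19 in pachytene over type A (0.00217) and fell by 1.10 on the log2 scale in spermatids over pachytene (± 0.19, 0.00391). It read 151 and 150.4 in spermatids against 366.1 and 316.9 in pachytene cells, so that the main probe set and this one went opposite ways after meiosis. The second probe set of Ube2v2 changed by -0.43 ± 0.19 in spermatids over pachytene (0.131), while the main probe set rose. Which transcript ends each probe set reads was not analysed here.

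**Figure D5:**
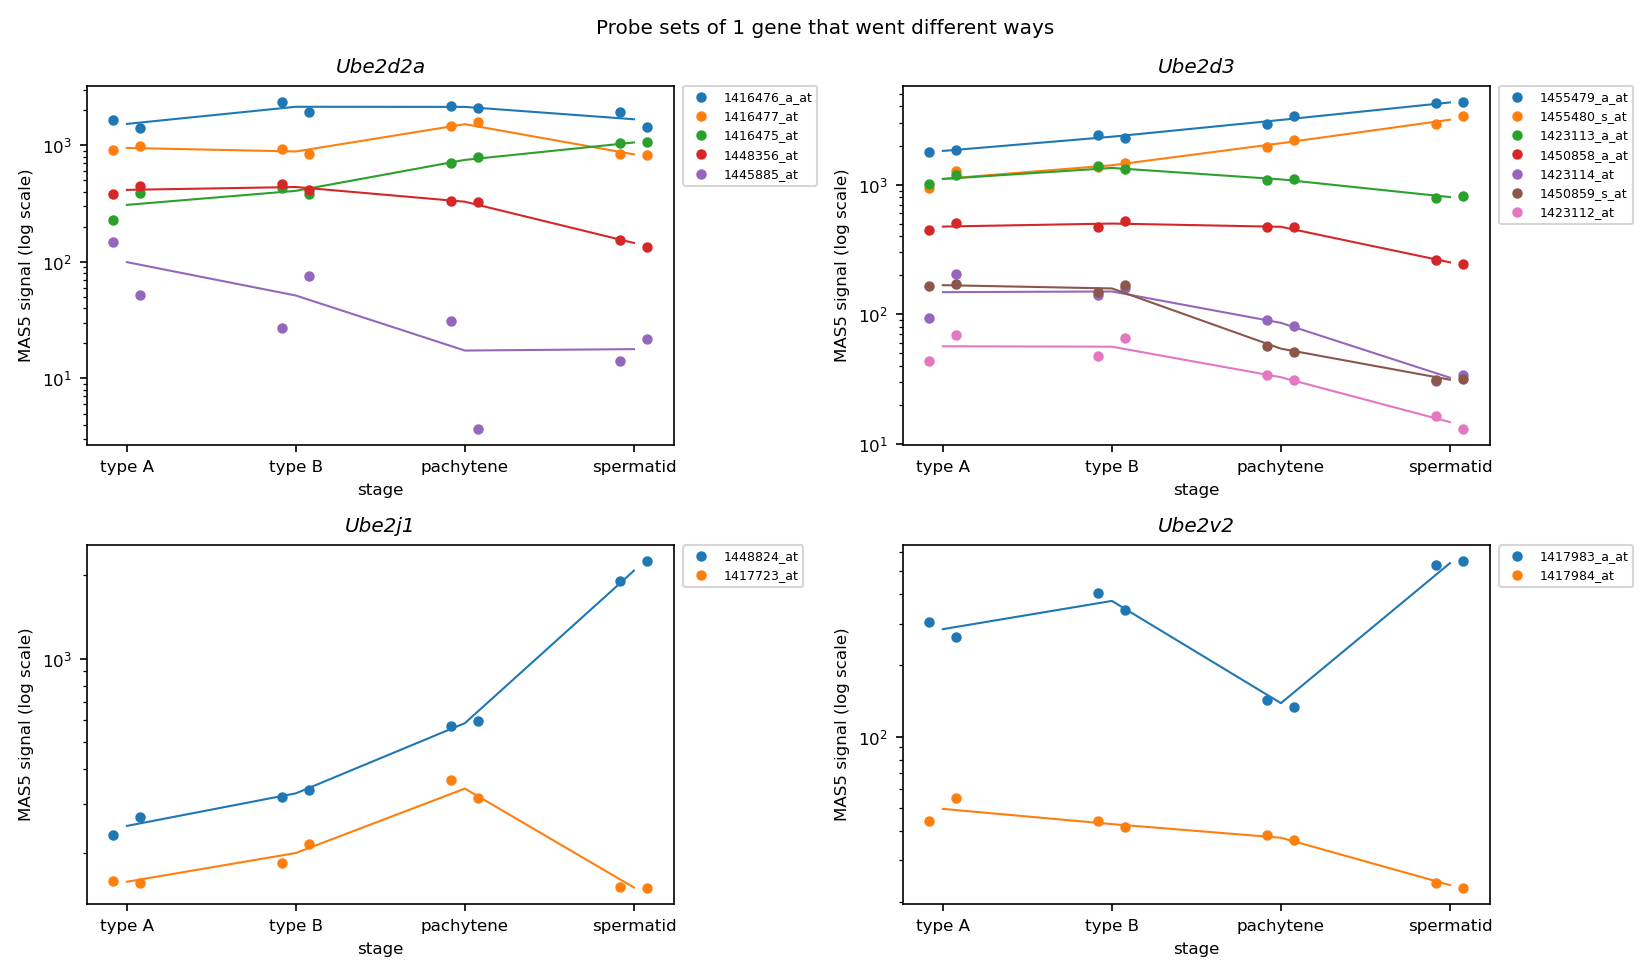
MAS5 signal (log axis) of every tested probe set of Ube2d2a, Ube2d3, Ube2j1 and Ube2v2 by stage, with points for single arrays and lines through stage means. In Ube2d3, 2 probe sets climb to spermatids and the others decline, and in Ube2j1 the 2 probe sets part after pachytene.

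Of 10 listed E1 genes and subunits, 7 were tested, of which 1 rose and 4 fell in pachytene over type A (all genes 27.2% and 35.6%), and 1 rose and 3 fell in spermatids over pachytene (all genes 15.9% and 19%). Uba1y, the Y-linked copy of the main ubiquitin E1, had 75.7 and 71.9 in pachytene cells against 1166 and 1336 in type A, a change of -3.82 ± 0.28 (7.83e-05), and rose by 2.51 ± 0.28 in spermatids over pachytene (0.000357). Its close relative Uba1 is X-linked, and cross-hybridization was not tested. Uba6, which charges Ube2z, fell by 1.62 on the log2 scale in pachytene over type A (± 0.33, 0.00278). In spermatids over pachytene, the SUMO E1 subunit Sae1 changed by -1.59 ± 0.20 (0.000652), and the Nedd8 E1 subunits Nae1 and Uba3 by -1.56 ± 0.20 (0.000643) and -1.19 ± 0.25 (0.00704).

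Among 11 ligases and cofactors of the RAD6 pair, 2 rose and 3 fell in pachytene over type A, beside the same background. The 2 partners that ubiquitinate histone H2B together moved apart. Rnf20 had 141.6 and 120 in pachytene cells against 553.5 and 400.3 in type A (-1.73 ± 0.27, adjusted p = 0.00079), and Rnf40 had 789.9 and 786.1 against 377.1 and 375.1 (1.04 ± 0.19, 0.00194). Rad18, the ligase for PCNA, rose by 0.96 ± 0.25 (0.0104), and Ubr2 fell by 2.15 on the log2 scale (± 0.21, 0.000134). In spermatids over pachytene 0 rose and 4 fell, with the largest changes in Shprh and Ubr1 at -1.19 and -1.07 (± 0.26 each, adjusted p = 0.00818 and 0.0132).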

How the data were processed

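Each of the 8 Affymetrix mouse genome arrays had 1 deposited intensity per probe set, which the authors computed by MAS5 (version not stated), per the submitters' processing notes. The mean intensity without the lowest and highest 2% was 125 on each array, and medians lay between 33.7 and 51.9. With 2 arrays a stage, their number limits the precision. GEO's platform annotation, updated through Entrez identifiers (RefSeq table of GRCm38.p6), named the genes.

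Values were analysed as log2(signal + 16), which understates the change of dim genes, with limma 3.58.1 in R 4.3.3 (1 mean per stage over all 8 arrays, no intensity trend), which left 4 residual degrees of freedom, with 4.01 prior ones. The two-sided tests were Benjamini-Hochberg adjusted over 14155 genes, and checked on simulated data. A probe set fit ran over 24514 probe sets. Replicates are independent preparations. The spread behind each limma p-value is pooled over the 4 stages and drawn towards that of all genes. It is not the spread of the compared stages alone.

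The E2 genes, paralog pairs and partner lists were chosen with earlier results of these data known. The text gives all 8 values for listed paralogs and, per comparison, the 5 largest called rises and falls, and up to 3 each way for partner lists. Alternatives were other pseudocounts, filters, scalings and probe set rules, an intensity trend, the replicate number as a block, and each array left out. Same-numbered replicates shared only a number: their deviations from the stage means correlated between -0.17 and 0.17 over pairs of stages.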

Additional observations from a re-analysis of the deposited data

How the results depend on the processing

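Of 70 called changes of single E2 genes, 70 kept direction and call with a pseudocount of 64, 70 with no filter on low values and 70 with an intensity trend, 69 with the replicate number as a block, 63 with centring on the 75th percentile and 62 after quantile normalization. Under ribosomal centring 39 did, 24 lost the call and 7 turned sign, and with the mean of all probe sets of a gene these were 51, 13 and 6. The cause of these losses was not tested. With the replicate block, the E2 counts of higher and lower genes were 0 and 0 in type B over type A, 6 and 13 in pachytene over type B, 7 and 13 in pachytene over type A, 6 and 3 in spermatids over pachytene, and 11 and 11 in spermatids over type A. Counts that moved by more than 1.5 times were, under ribosomal centring, 18 higher and 1 lower in pachytene over type B, 16 higher and 2 lower in pachytene over type A, and 17 higher and 2 lower in spermatids over type A. With the 75th percentile 11 were higher in pachytene over type B. With the mean of all probe sets, 2 were higher in spermatids over pachytene and 7 in spermatids over type A. Leaving out each array in turn gave 0 to 2 higher and 0 lower in type B over type A, 3 to 6 higher and 10 to 13 lower in pachytene over type B, 7 to 8 higher and 10 to 14 lower in pachytene over type A, 4 to 8 higher and 2 to 3 lower in spermatids over pachytene, 8 to 14 higher and 9 to 12 lower in spermatids over type A, 21 to 25 genes by the F test and 4 to 9 paralog pairs. Changes that turned sign under ribosomal centring, called or not, were, in pachytene over type B, Ube2cbp 0.001, Ube2e1 0.012, Ube2e2 0.074, Ube2g2 0.87, Ube2h 0.23, Ube2k 0.20, Ube2r2 0.36 and Ube2v1 0.84, and in pachytene over type A, Ube2e1 0.001 and Ube2g2 0.75. With the mean of all probe sets they were Ube2d3 -0.12 and Ube2j2 -0.57 in pachytene over type A, and in spermatids over type A Ube2b -0.51, Ube2d3 -0.49, Ube2g2 0.53, Ube2j2 -0.81, Ube2n -0.022, Ube2v2 -0.03 and Ube2w -0.55.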

Other observations

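Genes of SUMO ligases and proteases, which add the related modifier SUMO to proteins or remove it, were also measured. Of 14 listed genes 13 were tested, of which 3 rose and 4 fell in pachytene over type A (all genes 27.2% and 35.6%), and 3 rose and 2 fell in spermatids over pachytene (all genes 15.9% and 19%). Senp2, a SUMO protease, had 1961 and 2350 in pachytene cells against 422.3 and 313.3 in type A, a log2 change of 2.51 ± 0.22 (limma adjusted p = 0.0001). Pias2, a SUMO ligase, had 2448 and 2528 against 799.3 and 866.4, a change of 1.56 ± 0.18 (0.000221). In spermatids over pachytene, Pias1 had 2544 and 2106 against 710.3 and 626.2, a change of 1.77 ± 0.22 (0.000652), and Rnf4, a ubiquitin ligase directed to SUMO chains, had 1050 and 1176 against 224.8 and 322.7, a change of 1.98 ± 0.31 (0.00182). In each of these 4 comparisons, picked among the largest rises, the arrays of the later stage were all above those of the earlier one. The largest falls in pachytene over type A were Ranbp2 and Senp7 at -1.27 (± 0.29 each, limma adjusted p = 0.00518 and 0.00564) and Pias3 at -1.18 ± 0.19 (0.00103). In spermatids over pachytene, Nsmce2 and Senp2 were the 2 called lower, at -0.97 ± 0.20 (0.00635) and -0.84 ± 0.22 (0.0188).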
